A study of Homo sapiens with 8 samples.

Results

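The genes described here encode enzymes that modify drugs, steroids and aldehydes. They were taken by symbol and fall into 9 sets: the cytochromes P450 (CYP genes, in 3 sets, without CYP51A1), the UDP-glucuronosyltransferases (UGT1 and UGT2), the cytosolic glutathione S-transferases (GST), the sulfotransferases (SULT), the alcohol dehydrogenases (ADH), the aldehyde dehydrogenases (ALDH, without ALDH1L2) and the aldo-keto reductases of family 1 (AKR1). Of 20044 named genes on the array, 142 met this rule, and the probe with the highest mean over the 8 arrays stood for each gene. Of these 142 genes, 68 had a mean log2 value above 7.0 and 74 did not. The sets were 23 genes of CYP1 to CYP3 (8 above 7.0), 15 of CYP4 (4), 19 other CYP genes (8), 19 UGT (8), 21 GST (13), 11 SULT (4), 7 ADH (2), 18 ALDH (15) and 9 AKR1 genes (6). The level of 7.0 is close to the 95th percentile of 637 probes for genes taken as background, which was 7.003. Just above it lay GSTT2 at 7.02 and ADH6 at 7.02, and just below it CYP7B1 at 6.99 and ALDH1A2 at 6.98.

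Gene expression was measured on Illumina BeadChips in a pair of established human lines from liver tumours. Huh7 is a hepatoma line with hepatocyte character, while SK-Hep1 was derived from a liver adenocarcinoma and has been described as endothelial in type. The groups were SK-Hep1 with SMARCB1 knockdown (arrays 11 and 12), SK-Hep1 with a control short hairpin RNA (arrays 1 and 2), Huh7 with SMARCB1 knockdown (arrays 3 and 4) and Huh7 control (arrays 1 and 2). SMARCB1 is a core component of SWI/SNF, a family of complexes that move nucleosomes. Hairpin-carrying cells of all groups were selected with 1.25 µg/mL puromycin, so the controls had the same selection. GFP is named in the titles of the Huh7 controls only, so the 2 lines may not share a control construct. Both Huh7 knockdown titles also contain an 11, and whether 11 and 12 are different hairpins is not stated in the sources used here. Separate cultures are not recorded for the 2 arrays of a group, so p-values rest on array spread that may be technical.

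In hepatocytes, phase 1 enzymes such as the cytochromes P450, alcohol and aldehyde dehydrogenases and aldo-keto reductases oxidise or reduce foreign and endogenous compounds. Phase 2 enzymes then couple the products to glucuronic acid, glutathione or sulfate, which makes them easier to excrete. Many of these genes are under the control of ligand-activated receptors, among them the aryl hydrocarbon receptor AHR, and of hepatocyte transcription factors, and many lie in clusters of similar copies.

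The targeted gene was reduced in both lines. The brightest SMARCB1 probe read 9.30 and 9.67 in SK-Hep1 knockdown cells, against 10.68 and 10.61 in SK-Hep1 controls. In Huh7 it read 9.22 and 9.27 in knockdown cells, against 10.84 and 10.94 in controls. The remaining level was 44.7% in SK-Hep1 knockdown cells (log2 difference -1.16, limma adjusted p = 0.000113) and 32.0% in Huh7 knockdown cells (-1.65, adjusted p = 3.48e-06). A second probe gave differences of -0.999 in SK-Hep1 and -1.47 in Huh7.

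All values below are deposited log2 intensities or log2 differences, knockdown minus control, with 2 arrays per group. Line means were nearly equal in the deposited values: over the tested genes, the SK-Hep1 mean minus the Huh7 mean had an SD of 0.029. Levels were therefore not compared between lines, and levels of different probes were not compared at all. How the values were adjusted is not given. Whether such a step also changed the size of differences within a line was not tested. Since line levels are not held in the values, 7.0 is not a known floor within a line. A mean above 7.0 over the arrays of both lines therefore does not show that a gene is expressed in each line. Whether a gene with little change in SK-Hep1 is expressed there was not tested. The size of a difference may be understated where a group mean lay at or below 7.0. In Huh7 this held for the knockdown arrays of CYP4F12, CYP39A1 and PPARA and for the controls of BAAT, FMO1, RARRES1 and UGT2B28, besides the genes described without the filter. The SD of the difference between the 2 arrays of a group, over all tested genes, was 0.173 in SK-Hep1 knockdown cells, 0.135 in SK-Hep1 controls, 0.115 in Huh7 knockdown cells and 0.103 in Huh7 controls. All 13 hepatocyte markers had a mean above 7.0, and of 7 endothelial markers PECAM1 and ENG did, whereas CDH5, KDR, TEK, TIE1 and VWF did not. The endothelial label often given to SK-Hep1 could not be checked further, since line levels are not held in the values.

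In Huh7, the enzyme genes changed more often than the array as a whole, and in both directions. With limma and Benjamini-Hochberg adjustment over 12426 genes, 38 of the 68 genes passed a threshold of 0.05 (55.9%), 17 higher and 21 lower in knockdown cells. Of all genes tested, 38.9% passed, with 19.4% on the higher and 19.5% on the lower side. Over the 68 genes the median absolute difference was 0.275, against 0.174 over all genes tested. Differences of at least 0.5 were called for 14 of the 68 genes, 5 higher and 9 lower (20.6%), where 10.1% of all genes reached this size (4.89% higher, 5.24% lower). In SK-Hep1, 11 of the 68 genes passed (16.2%), 5 higher and 6 lower. Of all genes tested, 16.8% did (8.31% higher, 8.53% lower), so the share of enzyme genes there was near the background. Both shares may count genes that SK-Hep1 does not express, since the filter used the mean over both lines. In SK-Hep1 the median size was 0.141 for the 68 genes and 0.123 for all genes, and 0 enzyme genes passed with at least 0.5, a size reached by 3.49% of all genes. CYP1B1, at -0.50 after rounding, lay just short of that limit. Of these SK-Hep1 calls, those of CYP1B1, ALDH7A1 and GSTO1 passed in each of 17 settings, and the others were lost in at least 1.

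**Figure D1:**
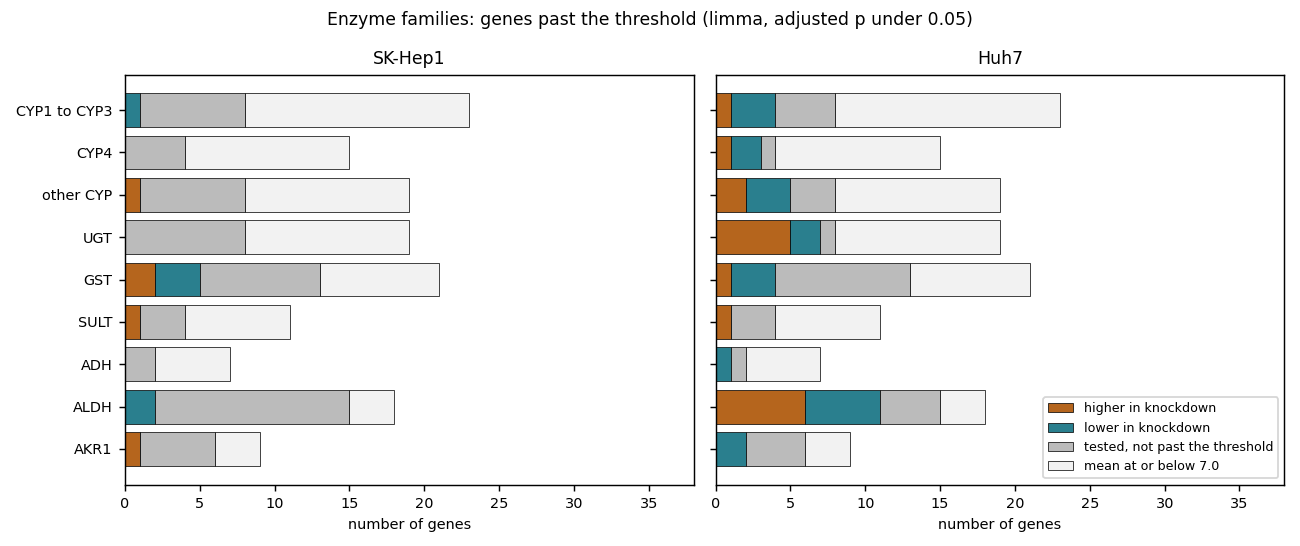
Number of genes in each enzyme family (horizontal axis) that were higher or lower in SMARCB1 knockdown cells at an adjusted p under 0.05, that were tested without passing, or that had a mean at or below 7.0. The left panel is SK-Hep1, where the coloured parts add up to 11 genes, and the right panel is Huh7, where they add up to 38.

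In Huh7, both knockdown arrays lay above both controls for 27 of the 68 genes and below both for 28. In SK-Hep1 the counts were 27 and 14. Such counts were not made over all genes tested, so these cannot be set against a background share. With no filter on dim probes, 40 of 142 genes passed in Huh7 (17 higher, 23 lower) where 22.2% of all 20044 genes did (11.1% higher, 11.2% lower), and 11 of 142 in SK-Hep1 (7 higher, 4 lower) where 8.89% did (4.52% higher, 4.37% lower).

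The CYP1 to CYP3 group holds the main oxidases of drugs and of carcinogens such as polycyclic aromatic hydrocarbons. Of its 8 tested genes, 1 rose and 3 fell in Huh7, and 0 rose and 1 fell in SK-Hep1. Counts for this and the other families stand beside the shares of all genes tested. These were 19.4% higher and 19.5% lower in Huh7, and 8.31% higher and 8.53% lower in SK-Hep1. No family was tested as a set. CYP1A1, which oxidises aromatic hydrocarbons and is the best-known target of AHR, had the largest fall of the 68 genes. It read 7.89 and 8.03 in Huh7 knockdown cells, against 9.53 and 9.50 in Huh7 controls, a difference of -1.56 ± 0.08 (SE, adjusted p = 8.26e-07) or 2.94-fold lower. In SK-Hep1 it read 8.75 and 8.65 in knockdown cells, against 8.52 and 8.67 in controls, and these arrays overlap. The difference there was 0.10 ± 0.08 (adjusted p = 0.409). The change in SK-Hep1 exceeded that in Huh7 by 1.66 (adjusted p = 9.79e-06).

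CYP1B1, a relative of CYP1A1 that also hydroxylates oestrogens and has AHR as a known regulator, was called in both lines with opposite signs. It read 8.55 and 8.59 in SK-Hep1 knockdown cells, against 9.0005 and 9.14 in SK-Hep1 controls (-0.50 ± 0.07, adjusted p = 0.00164). In Huh7 it read 9.11 and 9.04 in knockdown cells, against 8.57 and 8.61 in controls (0.48 ± 0.07, adjusted p = 0.000634). The groups do not overlap in either line, and the difference between the lines was -0.98 (adjusted p = 0.000125). CYP1B1 was the 1 gene of 6 called in both lines whose signs differed.

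CYP2R1, a vitamin D hydroxylase of the liver, read 8.92 and 8.91 in Huh7 knockdown cells, against 9.45 and 9.34 in controls (-0.48 ± 0.11, adjusted p = 0.00649). CYP3A5, a drug-oxidising enzyme of the CYP3A cluster, read 7.34 and 7.28 in Huh7 knockdown cells, against 7.60 and 7.60 in controls (-0.29 ± 0.09, adjusted p = 0.0281). Neither passed in SK-Hep1 (-0.09 and 0.19). Without Huh7 control 1, CYP2R1 differed by -0.43 (adjusted p = 0.0567), and CYP3A5 was lost without any of the 4 Huh7 arrays (-0.32 to -0.26, adjusted p from 0.0742 to 0.141). The other 4 tested genes, CYP2D6, CYP2E1, CYP2J2 and CYP2U1, passed in neither line. CYP2E1, the ethanol-inducible form, had one of the wider gaps between replicate arrays, with 7.36 and 7.82 in SK-Hep1 knockdown cells.

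**Figure D2:**
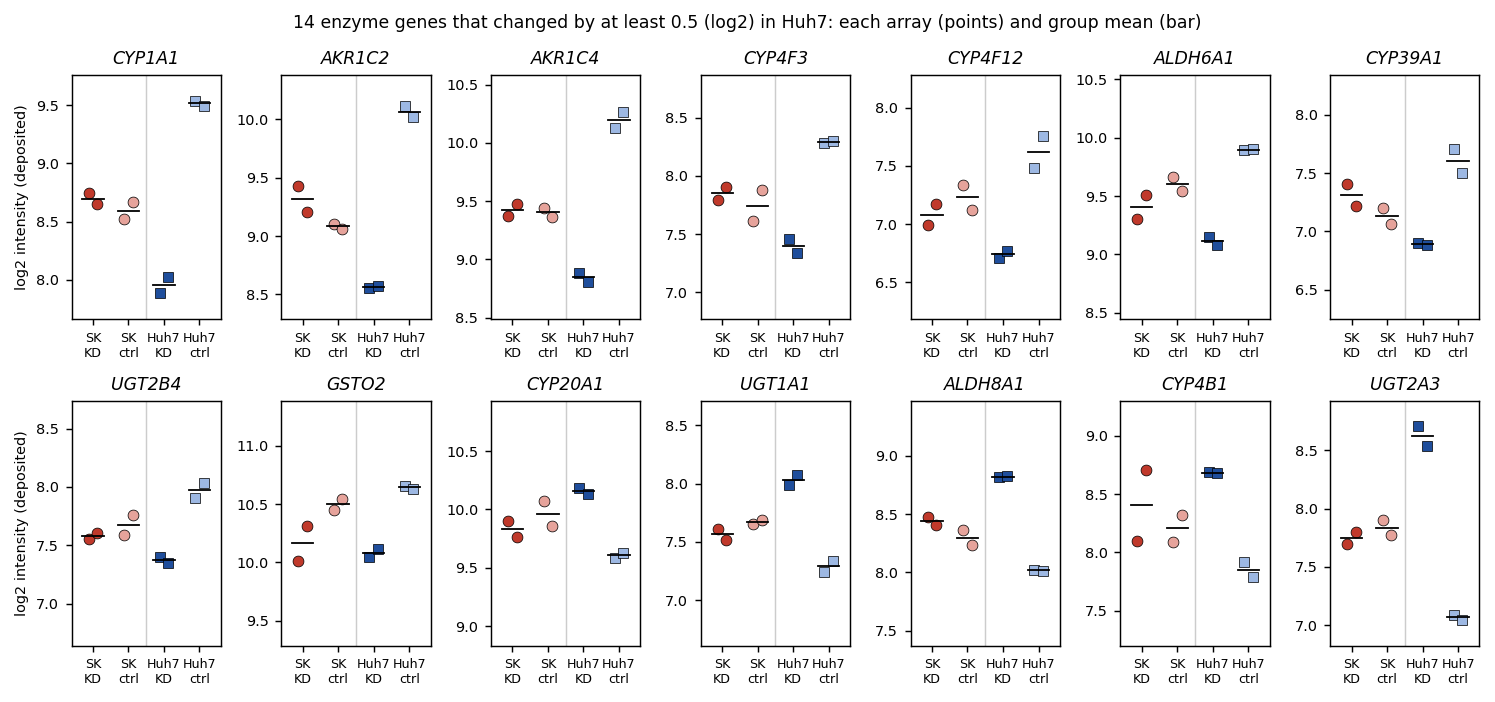
Deposited log2 intensity (vertical axis) on each array for enzyme genes with a change of at least 0.5 in Huh7, with group means as bars; SK-Hep1 stands left of Huh7 in each panel and knockdown left of control. CYP1A1, AKR1C2 and AKR1C4 sit lower and UGT2A3 sits higher on the Huh7 knockdown arrays than on the Huh7 controls.

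The windows around the start sites of the 3 genes with the largest falls are shown because these genes fell together in Huh7 and 2 of them belong to the same gene cluster. They are RefSeq sequences of GRCh38.p14, 250 bases before to 50 bases after the start, read 5′ to 3′ on the gene's strand, at chr15:74725479-74725778 (minus strand) for CYP1A1, chr10:5003808-5004107 (minus strand) for AKR1C2 and chr10:5196587-5196886 (plus strand) for AKR1C4. Capitals mark matches on either strand to any of 4 motifs: GCGTG (core of the AHR response element), TGACNNNGC (core of the antioxidant response element), TATAAA (a core promoter box) and GTTAAT (part of the HNF1 site).
CYP1A1: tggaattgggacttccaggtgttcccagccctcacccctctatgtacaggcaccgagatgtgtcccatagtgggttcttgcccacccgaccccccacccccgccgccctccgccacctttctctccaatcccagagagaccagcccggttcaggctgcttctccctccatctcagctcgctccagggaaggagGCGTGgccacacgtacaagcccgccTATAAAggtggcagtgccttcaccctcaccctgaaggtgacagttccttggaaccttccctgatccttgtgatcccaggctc
AKR1C2: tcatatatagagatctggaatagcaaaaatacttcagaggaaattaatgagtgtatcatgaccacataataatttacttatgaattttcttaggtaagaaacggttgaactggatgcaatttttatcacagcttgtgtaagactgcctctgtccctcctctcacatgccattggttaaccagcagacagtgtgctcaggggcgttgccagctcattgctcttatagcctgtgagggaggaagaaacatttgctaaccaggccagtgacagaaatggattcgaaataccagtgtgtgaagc
AKR1C4: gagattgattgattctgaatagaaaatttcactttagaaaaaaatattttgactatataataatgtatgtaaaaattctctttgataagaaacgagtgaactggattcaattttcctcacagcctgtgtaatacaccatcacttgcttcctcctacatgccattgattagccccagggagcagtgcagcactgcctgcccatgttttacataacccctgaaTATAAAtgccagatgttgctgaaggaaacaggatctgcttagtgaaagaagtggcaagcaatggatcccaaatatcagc
The CYP1A1 window holds GCGTG from base -57 and TATAAA from base -32, counted from the start site. The AKR1C4 window holds TATAAA from base -29, and in the AKR1C2 window these letters do not occur. GCGTG occurs in 36.33% of 27305 promoter windows of this length, TGACNNNGC in 13.56%, TATAAA in 11.95% and GTTAAT in 6.893%. Of the 106 enzyme genes with a window in the table, 28 hold GCGTG, 14 TGACNNNGC, 31 TATAAA and 12 GTTAAT. In a global alignment, the windows of AKR1C2 and AKR1C4 share 212 of 300 bases, those of AKR1C1 and AKR1C2 share 288, and those of AKR1C2 and CYP1A1 share 166.

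AKR1 enzymes reduce aldehydes and ketones, and the AKR1C members act on steroid hormones and bile acid precursors. Of 6 tested genes 0 rose and 2 fell in Huh7, and 1 rose and 0 fell in SK-Hep1. AKR1C2, which inactivates dihydrotestosterone, read 8.55 and 8.57 in Huh7 knockdown cells, against 10.12 and 10.02 in controls (-1.51 ± 0.08, adjusted p = 1.19e-06, 35.2% of control). AKR1C4, the liver-specific member of this cluster, read 8.89 and 8.81 in Huh7 knockdown cells, against 10.13 and 10.26 in controls (-1.35 ± 0.08, adjusted p = 1.41e-06). The knockdown arrays were more than 1 below the controls in both genes. The other AKR1C2 probes all had means below 7.0, and their Huh7 differences ran from -0.30 to 0.10.

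In SK-Hep1, AKR1C2 differed by 0.24 (adjusted p = 0.0771) and AKR1C4 by 0.02 (adjusted p = 0.882). AKR1C3, which makes testosterone and prostaglandin F, read 9.17 and 9.21 in SK-Hep1 knockdown cells, against 8.76 and 8.96 in SK-Hep1 controls (0.33 ± 0.08, adjusted p = 0.0209). Without SK-Hep1 control 1 this was 0.23 (adjusted p = 0.134), and without SK-Hep1 knockdown 12 it was 0.31 (adjusted p = 0.0598). In Huh7 the AKR1C3 difference was -0.22 (adjusted p = 0.054), and leaving out any 1 SK-Hep1 array brought it past the threshold (adjusted p from 0.0332 to 0.0463). AKR1C1, at a mean of 6.37, was too dim to be tested with the others. These genes are near-identical copies in coding sequence and probes may cross-hybridise, so the split of signal between AKR1C1, AKR1C2 and AKR1C3 is uncertain.

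The 2 probes of AKR1C4 above 7.0 gave opposite results in Huh7. The brighter, ILMN_1687757, fell as given above, while ILMN_1668880 read 7.62 and 7.61 in knockdown cells, against 7.05 and 7.11 in controls (0.53, adjusted p = 0.000249 over all named probes). The mean of both probes fell by 0.41 (adjusted p = 0.000918). The same happened for AKR1D1, the 5β-reductase of bile acid and steroid breakdown. Its bright probe ILMN_2157277 differed by -0.14 in Huh7 and was not called, whereas ILMN_1692661 read 8.03 and 8.06 in knockdown cells, against 6.87 and 6.77 in controls (1.23, adjusted p = 1.53e-07 over all named probes). Which transcripts these probes report is not given in the sources used here.

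**Figure D3:**
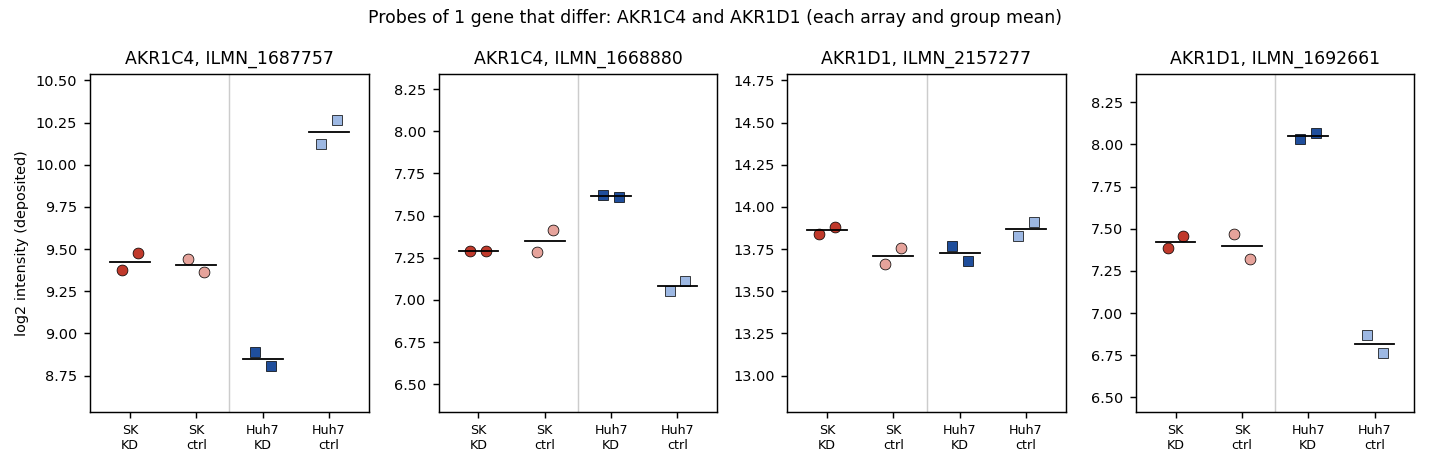
Deposited log2 intensity (vertical axis) on each array for both probes of AKR1C4 and AKR1D1 with a mean above 7.0, with group means as bars and knockdown left of control in each line. In Huh7 the AKR1C4 probes moved by -1.35 and 0.53, and the AKR1D1 probes by -0.14 and 1.23.

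CYP4 enzymes hydroxylate fatty acids and eicosanoids at the end of the chain. Of 4 tested genes, 1 rose and 2 fell in Huh7 and 0 passed in SK-Hep1. CYP4F3, which inactivates leukotriene B4, read 7.46 and 7.34 in Huh7 knockdown cells, against 8.28 and 8.30 in controls (-0.89 ± 0.09, adjusted p = 7.56e-05). CYP4F12 read 6.71 and 6.77 in Huh7 knockdown cells, against 7.48 and 7.76 in controls (-0.88 ± 0.11, adjusted p = 0.000175). Both lie in a cluster on chromosome 19. CYP4F22, which hydroxylates very long fatty acids for skin ceramides and lies in the same cluster, had a mean of 6.93 and entered only without the filter. It read 6.24 and 6.197 in Huh7 knockdown cells, against 7.66 and 7.68 in Huh7 controls (-1.45), and 6.96 and 6.89 in SK-Hep1 knockdown cells, against 6.91 and 6.92 in SK-Hep1 controls (0.01). CYP4F8, CYP4F2 and CYP4F11 were also below 7.0 and differed by -0.07, -0.07 and 0.00 in Huh7.

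CYP4B1, which activates protoxins such as ipomeanol in animals, rose in Huh7. It read 8.69 and 8.68 in knockdown cells, against 7.92 and 7.79 in controls (0.83 ± 0.16, adjusted p = 0.0025). In SK-Hep1 its knockdown arrays read 8.10 and 8.71, against 8.09 and 8.32 in controls, so that the replicate gap was larger than the difference of 0.20 (adjusted p = 0.42). Without SK-Hep1 knockdown 11 that difference was 0.50 (adjusted p = 0.0099).

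The remaining CYP genes act mostly on steroids, bile acids, vitamins A and D and substrates of their own. Of 8 tested, 2 rose and 3 fell in Huh7, and 1 rose and 0 fell in SK-Hep1. CYP39A1, a 7α-hydroxylase of bile acid synthesis, read 6.90 and 6.88 in Huh7 knockdown cells, against 7.71 and 7.50 in controls (-0.72 ± 0.09, adjusted p = 0.000273). CYP20A1, an orphan enzyme, read 10.18 and 10.13 in Huh7 knockdown cells, against 9.58 and 9.63 in controls (0.55 ± 0.09, adjusted p = 0.000741). Both genes separate the groups in Huh7, and in SK-Hep1 the differences of 0.18 and -0.13 were not called.

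The retinoic acid hydroxylases CYP26B1 and CYP26A1 fell in Huh7. CYP26B1 read 9.04 and 8.95 in Huh7 knockdown cells, against 9.43 and 9.50 in controls (-0.47 ± 0.07, adjusted p = 0.000868). CYP26A1 read 7.07 and 7.19, against 7.37 and 7.37 (-0.25 ± 0.09, adjusted p = 0.0498), a call at the edge of the threshold that was lost without any 1 of 6 arrays (-0.31 to -0.18, adjusted p from 0.0652 to 0.253). CYP11A1, the side-chain cleavage enzyme that starts steroid synthesis, rose by 0.29 in Huh7 (adjusted p = 0.0174), and by 0.20 without Huh7 knockdown 4 (adjusted p = 0.161), a call also lost without either Huh7 control. CYP27B1, which activates vitamin D, read 8.84 and 8.60 in SK-Hep1 knockdown cells, against 8.43 and 8.29 in controls (0.36 ± 0.09, adjusted p = 0.0204). In Huh7 the difference was 0.24, without passing (adjusted p = 0.0558). The SK-Hep1 call was lost without control 2 (0.29, adjusted p = 0.12) or knockdown 11 (0.24, adjusted p = 0.0705), and the Huh7 difference passed without either SK-Hep1 knockdown array (adjusted p = 0.0171). CYP27A1, a sterol hydroxylase of bile acid synthesis, passed in neither line (0.33 in SK-Hep1, adjusted p = 0.0514, and -0.27 for Huh7, adjusted p = 0.059), but the difference between the lines passed (0.59).

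UGT enzymes attach glucuronic acid to bilirubin, bile acids, steroids and drugs. Of 8 tested UGT genes, 5 rose and 2 fell in Huh7, with a median difference of 0.37, and 0 passed in SK-Hep1. UGT2A3, which glucuronidates bile acids, had the largest rise of the 68 genes. It read 8.71 and 8.54 in Huh7 knockdown cells, against 7.09 and 7.04 in controls (1.55 ± 0.08, adjusted p = 1.06e-06, 294% of control). UGT1A1, which clears bilirubin, read 7.99 and 8.08 in Huh7 knockdown cells, against 7.24 and 7.34 in controls (0.74 ± 0.07, adjusted p = 4.47e-05). UGT1A6 rose by 0.35 (adjusted p = 0.00334). UGT1A genes share their last exons, so a probe there could not separate them.

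UGT2B28 (0.38, adjusted p = 0.00174) and UGT2B11 (0.44, adjusted p = 0.00738) also rose in Huh7. A second UGT2B11 probe gave -0.10 there, and the mean of both gave 0.17 (adjusted p = 0.165). UGT2B4, active on bile acids, read 7.40 and 7.35 in Huh7 knockdown cells, against 7.91 and 8.03 in controls (-0.60 ± 0.08, adjusted p = 0.00031). UGT2B17, which clears androgens, fell by 0.40 in Huh7 (adjusted p = 0.00434). A second UGT2B17 probe with a mean of 6.89, ILMN_1752214, went the other way, at 7.10 and 7.17 in Huh7 knockdown cells, against 6.79 and 6.51 in controls (0.49, adjusted p = 0.00258 over all named probes). The UGT2 cluster on chromosome 4 thus held genes that rose and genes that fell side by side. Below 7.0, UGT2B10 and UGT2B15 were called higher in Huh7 without the filter (0.53 and 0.50), and similar sequence among UGT2B genes makes the split of their signal uncertain.

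**Figure D4:**
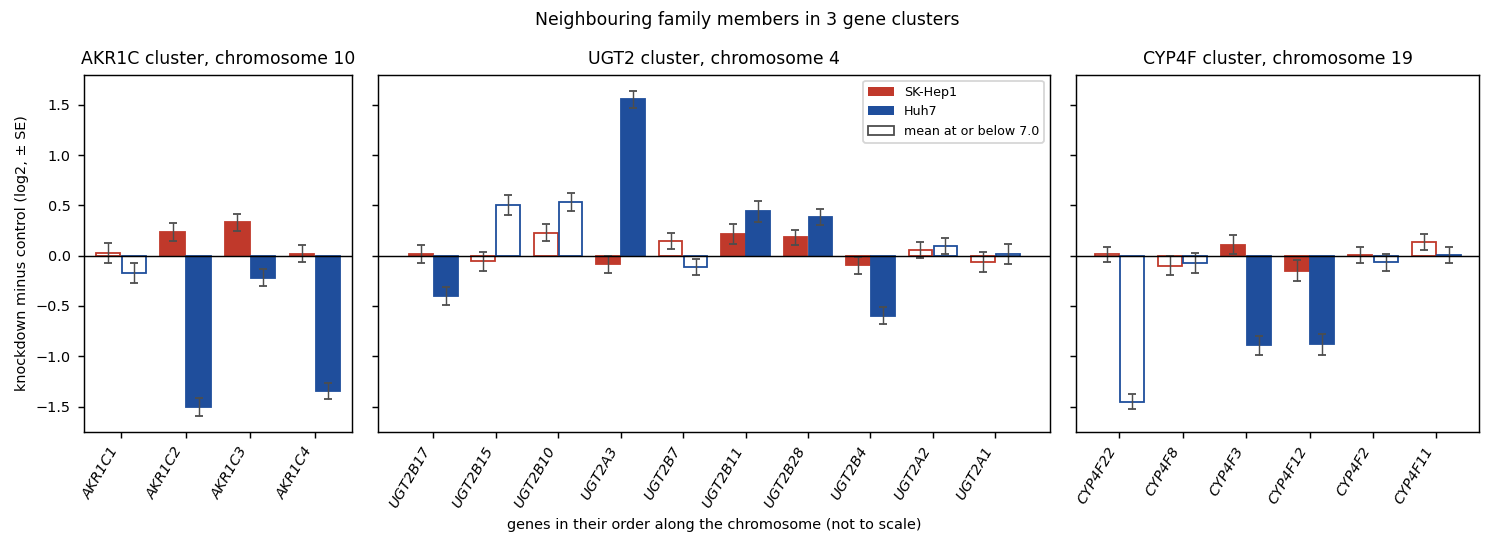
Log2 difference, knockdown minus control (vertical axis, with SE bars from the fit without a filter), for the genes of the AKR1C, UGT2 and CYP4F clusters in chromosomal order, with SK-Hep1 left of Huh7 and open bars for genes at or below 7.0. In Huh7 AKR1C2 and AKR1C4 fall by more than 1 with AKR1C3, at -0.22, between them, UGT2A3 rises by 1.55, and CYP4F3 and CYP4F12 lie at -0.89 and -0.88.

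GST enzymes couple glutathione to reactive compounds. Of 13 tested genes, 1 rose and 3 fell in Huh7, and 2 rose and 3 fell in SK-Hep1. The omega-class pair on chromosome 10, whose products reduce dehydroascorbate, moved in opposite directions in each line. GSTO1 read 13.81 and 13.85 in SK-Hep1 knockdown cells, against 13.47 and 13.45 in controls (0.37 ± 0.07, adjusted p = 0.00465). In Huh7 it read 13.88 and 13.79 in knockdown cells, against 13.46 and 13.47 in controls (0.37 ± 0.07, adjusted p = 0.00183). GSTO2 read 10.01 and 10.31 in SK-Hep1 knockdown cells, against 10.45 and 10.55 in controls (-0.34 ± 0.09, adjusted p = 0.0359). That call was lost without any 1 of 7 arrays, and the difference was -0.19 without knockdown 11 (adjusted p = 0.128). In Huh7 GSTO2 read 10.05 and 10.12 in knockdown cells, against 10.66 and 10.63 in controls (-0.56 ± 0.09, adjusted p = 0.00122).

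GSTA4, which detoxifies the lipid peroxidation product 4-hydroxynonenal, passed in both lines, as it fell by 0.26 in SK-Hep1 (adjusted p = 0.0329) and Huh7 gave -0.28 (adjusted p = 0.0111). The SK-Hep1 call was lost without any SK-Hep1 array (-0.30 to -0.22, adjusted p from 0.0558 to 0.154) and without Huh7 knockdown 3 or 4, and the Huh7 call without Huh7 control 2 (-0.22, adjusted p = 0.114) or knockdown 3 (-0.26, adjusted p = 0.0729). GSTT1 rose in SK-Hep1 (0.41, adjusted p = 0.0282), and the call was lost without any 1 SK-Hep1 array (0.39 to 0.42, adjusted p from 0.0538 to 0.127). GSTM1 fell there by 0.22 (adjusted p = 0.0479), and this call was lost without any 1 of the 8 arrays (-0.24 to -0.21, adjusted p from 0.0704 to 0.159). GSTM4 fell by 0.32 in Huh7 (adjusted p = 0.00421), its second probe gave 0.13, and the mean of both gave -0.10 (adjusted p = 0.219). GSTM genes are similar enough for probes to share signal. GSTP1, with a mean of 14.06, differed by -0.01 in SK-Hep1 and 0.10 in Huh7. Of 4 tested SULT genes, SULT1A3, a dopamine sulfotransferase with a near-identical copy, rose in SK-Hep1 (0.32, adjusted p = 0.0214). It was lost without either control or without knockdown 11 (0.25 to 0.34, adjusted p from 0.0693 to 0.108). SULT1C4 rose in Huh7 (0.42, adjusted p = 0.00141).

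ALDH enzymes oxidise aldehydes to acids. Of 15 tested genes, 6 rose and 5 fell in Huh7, and 0 rose and 2 fell in SK-Hep1. ALDH8A1, which acts in tryptophan breakdown, read 8.81 and 8.83 in Huh7 knockdown cells, against 8.02 and 8.01 in controls (0.80 ± 0.07, adjusted p = 2.16e-05), and its 3 probes gave 0.47 to 0.82. ALDH6A1, of valine breakdown, read 9.15 and 9.08 in Huh7 knockdown cells, against 9.89 and 9.90 in controls (-0.78 ± 0.08, adjusted p = 7.77e-05), and its second probe gave -0.62. These changes of similar size ran in opposite directions.

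ALDH7A1, of lysine breakdown, and ALDH3B1 fell in both lines. ALDH7A1 read 11.85 and 11.96 in SK-Hep1 knockdown cells, against 12.47 and 12.30 in controls (-0.48 ± 0.08, adjusted p = 0.0038), and 11.996 and 11.97 in Huh7 knockdown cells, against 12.26 and 12.38 in controls (-0.34 ± 0.08, adjusted p = 0.00786). In SK-Hep1 ALDH3B1 differed by -0.26 (adjusted p = 0.0451), and in Huh7 by -0.41 (adjusted p = 0.00231). Its SK-Hep1 call was lost without any 1 of the 8 arrays (-0.32 to -0.20, adjusted p from 0.0532 to 0.192). The Huh7 call of ALDH7A1 was lost without control 2 (-0.28, adjusted p = 0.0775) or knockdown 4 (-0.33, adjusted p = 0.0526). The mitochondrial ALDH1B1 rose in Huh7 (0.40, adjusted p = 0.00122), as did ALDH16A1 (0.34, adjusted p = 0.0198), and 3 other ALDH genes rose and 2 fell there by 0.22 to 0.34. Of these 5, ALDH3A1 and ALDH3A2 were lost without any 1 Huh7 array, ALDH5A1 and ALDH18A1 without control 1 or either knockdown array, and ALDH2 without control 1 or knockdown 3 (adjusted p from 0.0579 to 0.223). ALDH16A1 was lost without Huh7 control 2 (0.23, adjusted p = 0.172) or either Huh7 knockdown array. ADH5, the formaldehyde-clearing class III alcohol dehydrogenase, fell by 0.23 in Huh7 (adjusted p = 0.0398), a call lost without any 1 of 6 arrays (-0.29 to -0.17, adjusted p from 0.0527 to 0.241). ADH6, the other tested ADH gene, passed in neither line.

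The lines were then compared gene by gene. The remaining SMARCB1 level also differed, at 44.7% in SK-Hep1 and 32.0% in Huh7, and hairpins and control constructs may differ too. These cannot be told apart from the line. For 26 of the 68 genes (38.2%) the knockdown difference itself differed between the lines, where 31.3% of all genes did. In 19 of the 26 the SK-Hep1 difference was the higher (15.2% of all genes), and in 7 the lower (16.1%). Of the 6 genes called in both lines, GSTO1 rose in both, GSTO2, GSTA4, ALDH7A1 and ALDH3B1 fell in both, and CYP1B1 had opposite signs. In neither line were 25 genes called. Of all genes tested, 16.8% were called in SK-Hep1 and 38.9% in Huh7. Calls in both lines or in neither were not counted over all genes, so these counts have no background share. A gene not called in a line may not be expressed there, and this was not tested.

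**Figure D5:**
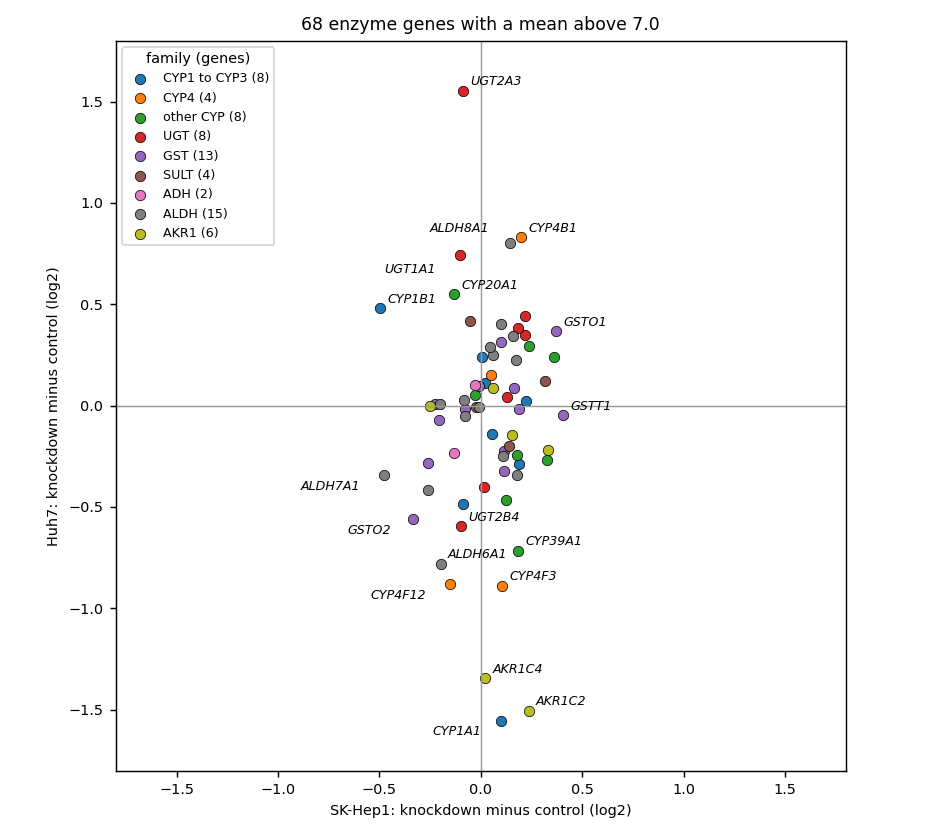
Knockdown minus control (log2) in SK-Hep1 (horizontal axis) against Huh7 (vertical axis) for the 68 genes with a mean above 7.0, coloured by family, with the named genes labelled. Huh7 differences run from -1.56 to 1.55, SK-Hep1 differences from -0.50 to 0.41, and the 4 genes past 1 in Huh7 lie between -0.09 and 0.24 in SK-Hep1.

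Genes outside the families were taken from lists for the same pathway. Of 24 tested regulators, 3 rose and 11 fell in Huh7 (median -0.16), and 2 rose and 3 fell in SK-Hep1. Over all genes tested, 19.4% rose and 19.5% fell in Huh7, and 8.31% rose and 8.53% fell in SK-Hep1. These shares also stand beside the counts of the lists and markers below, which were not tested as sets. AHR read 12.05 and 11.85 in Huh7 knockdown cells, against 12.21 and 12.34 in controls (-0.32, adjusted p = 0.0144), and ARNT, its partner, differed by -0.30 (adjusted p = 0.00923). Without Huh7 control 2 or knockdown 4 both calls were lost (AHR -0.26 and -0.22, adjusted p = 0.119 and 0.137, and ARNT -0.24 each, adjusted p = 0.0898 and 0.0881). In SK-Hep1 they differed by 0.08 and -0.14 and were not called (adjusted p = 0.537 and 0.222). TIPARP, an AHR target that restrains AHR, fell in both lines, with -0.28 in SK-Hep1 (adjusted p = 0.0201), while Huh7 gave -0.33 (adjusted p = 0.0036). Its SK-Hep1 call was lost without either control or knockdown 12 (-0.30 to -0.26, adjusted p from 0.0565 to 0.0975). AHRR and NR1I3 (CAR), with means of 6.89 and 6.68, were not tested, and NR1I2 and HNF4A were not analysed here.

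The lipid and energy regulators PPARA (-0.70), PPARGC1A (-0.95), NR1H3 (-0.52) and FOXA3 (-0.55) fell in Huh7, and FOXA3 also passed in SK-Hep1 without knockdown 11 (-0.44, adjusted p = 0.0113). RARB, a retinoic acid receptor, rose in SK-Hep1 (0.55) and Huh7 (0.45). NFE2L2, which drives antioxidant genes, fell in SK-Hep1 by 0.37 (adjusted p = 0.00686), and its repressor KEAP1 rose in Huh7 by 0.56 (adjusted p = 0.000497). POR, the electron donor of microsomal CYP enzymes, did not pass in SK-Hep1 (-0.23, adjusted p = 0.0723) or in Huh7 (-0.18, adjusted p = 0.0938), where it passed without knockdown 4 (-0.29, adjusted p = 0.0381).

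Of 36 other phase 1 enzymes and electron donors, 5 rose and 12 fell in Huh7, and 5 rose and 4 fell in SK-Hep1. AOX1, an oxidase of aldehydes and drugs, read 10.08 and 10.26 in SK-Hep1 knockdown cells, against 9.36 and 9.46 in controls (0.76), and 9.16 and 9.07 in Huh7 knockdown cells, against 10.40 and 10.41 in controls (-1.29). RDH10, which starts retinoic acid synthesis, read 10.69 and 10.60 in SK-Hep1 knockdown cells, against 9.23 and 9.26 in controls (1.40), and fell by 0.37 in Huh7. Both genes thus changed in opposite directions in the lines. DPYD, of pyrimidine breakdown, fell in both lines (-0.58 in SK-Hep1, -0.94 in Huh7), and in Huh7 the flavin monooxygenase FMO1 rose (0.75). The carbonyl reductase CBR4 (-0.72) and the hydroxysteroid dehydrogenases HSD17B2 (-0.68) and HSD17B6 (-0.83) fell in Huh7. Without SK-Hep1 knockdown 12, CBR4 also passed in SK-Hep1 (-0.28, adjusted p = 0.0458), and without knockdown 11 HSD17B6 did (-0.43, adjusted p = 0.00559).

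Of 16 other phase 2 genes, 5 rose and 4 fell in Huh7, and 5 rose and 1 fell in SK-Hep1. BAAT, which conjugates bile acids, read 8.20 and 8.08 in Huh7 knockdown cells, against 6.32 and 6.32 in controls. The difference was 1.82, with dim controls, so its size may be understated. NNMT, which methylates nicotinamide, rose in SK-Hep1 (0.58) and Huh7 (1.00), and ACSM3, an acyl-CoA synthetase, fell in both (-0.58 and -0.67). Of 11 transporters, 3 rose and 5 fell in Huh7, and 4 rose and 0 fell in SK-Hep1. ABCB1, the P-glycoprotein drug pump, read 9.47 and 9.52 in Huh7 knockdown cells, against 8.40 and 8.37 in controls (1.11). The organic anion transporter SLC22A9 fell by 0.90 there, and the nucleotide exporter ABCC5 rose in SK-Hep1 (0.27) and fell in Huh7 (-0.69). The SK-Hep1 call of ABCC5 was lost without any 1 of 7 arrays (0.17 to 0.28, adjusted p from 0.0614 to 0.152). Of 9 vitamin A genes, 3 rose and 4 fell in Huh7, and 2 rose and 1 fell in SK-Hep1, with RARRES1 at 1.19, RARRES2 (chemerin) at -0.79 and the retinol carrier RBP4 at -0.84 in Huh7. PLAAT4, a retinoid-inducible lipid enzyme, differed by -0.44 in SK-Hep1 and 0.77 in Huh7. Its SK-Hep1 call was lost without either control or knockdown 12 (-0.46 to -0.24, adjusted p from 0.0619 to 0.102).

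Markers of cell identity moved beside these changes. In Huh7, 7 of 13 hepatocyte markers fell and 1 rose, and their summed linear level was 17007 and 17451 on the knockdown arrays, against 19164 and 19481 on the controls. In SK-Hep1, SERPINA1 (0.58) was the 1 of the 13 that rose, and 0 fell. The sums there were 16893 and 16105 in knockdown cells, against 15394 and 15406 in controls. Such sums weigh bright probes most, so 1 gene can move them. Of 4 cholangiocyte markers, 3 rose in Huh7 (sums 12690 and 12872 in knockdown cells, against 7807 and 7882 in controls) and 3 fell in SK-Hep1 (9278 and 7769 in knockdown cells, against 11864 and 11830 in controls). Of 3 fetal liver or hepatoma markers, GPC3 (-0.73) and H19 (-0.60) fell in Huh7 and AFP rose in SK-Hep1 (0.48), with sums of 3693 and 4089 in SK-Hep1 knockdown cells, against 2981 and 2999 in controls, and of 3445 and 3799 in Huh7 knockdown cells, against 4098 and 4021 in controls. Of 4 immune markers, CD14 (1.04) and CD68 (0.61) rose in SK-Hep1 and CD14 fell in Huh7 (-1.07), while PTPRC and CD3E, the defining leukocyte and T cell markers, lay below 7.0. Of 6 stellate or fibroblast markers, COL3A1 fell in SK-Hep1 (-0.46), and in Huh7 COL1A1 rose (0.53) and COL1A2 fell (-0.63). Of the 2 endothelial markers above 7.0, ENG rose in SK-Hep1 (0.46, adjusted p = 0.00443) and PECAM1 fell in Huh7 (-0.32, adjusted p = 0.00356). The immune sums were 3646 and 3461 in SK-Hep1 knockdown cells, against 2198 and 2305 in controls, and 2376 and 2557 in Huh7 knockdown cells, against 3120 and 3114 in controls. The stellate sums lay between 2156 and 2445 and the endothelial sums between 903 and 1025 over all groups. The part of these markers in the enzyme results was not tested. In a bulk array, a change in the share of cells and a change of RNA per cell cannot be told apart.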

How the data were processed

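Total RNA of 8 samples was hybridised to Illumina BeadChips. The log2 intensities were deposited by the authors in a processed table of 47319 probes, made with GenomeStudio 2011.1 per the submitters' processing notes. How they were normalized is not given in the sources used here. A second, unnormalized table was set aside because its 16 value columns match no label. Of the probes, 30110 carry 1 gene symbol, 8 several and 17201 none in the platform annotation, and 30071 matched RefSeq (GRCh38.p14). The enzyme genes and the other gene lists were chosen with earlier results of these data known.

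The brightest probe by the mean of 8 arrays stood for a gene, and 12426 genes with a mean above 7.0 entered a fit with limma (version 3.58.1, R 4.3.3, functions lmFit and eBayes, 4 group means, two-sided, Benjamini-Hochberg over all genes tested, threshold 0.05). The fit was tested on simulated data. Contrasts were knockdown minus control in each line, and the difference of these between the lines. Arrays, not read depth, limit the precision: 2 per group leave 4 residual degrees of freedom. Genes named in full had passed with at least 0.5 (log2) in either line, up to 15 per line, up to 4 further per family were named by size, and a gene whose probes disagreed was named with them. From the other lists, genes past the threshold with at least 0.5 were named, up to 6 per list and line, besides a fixed few. GSTM1, CYP27A1, ALDH2, ALDH3A1, ALDH3A2, ALDH5A1, ALDH18A1 and the markers were named beyond this rule after their values were seen. Alternatives were other filters, quantile normalization, array weights, another spread prior, each line alone, the mean of all probes and each array left out.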

Additional observations from a re-analysis of the deposited data

Results flagged for a closer look

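The knockdown difference of the genes below differed between the lines by limma's test of that difference, at an adjusted p under 0.05 over all genes tested. Each value in parentheses is the log2 difference in SK-Hep1 minus that in Huh7, with 2 arrays per group. Values above 0 mean that the gene was higher, relative to its control, in SK-Hep1 knockdown cells than in Huh7 knockdown cells. Whether each gene is expressed in both lines was not tested.

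Among the enzyme genes, values above 0 were found for AKR1C2 (1.74), CYP1A1 (1.66), AKR1C4 (1.37), CYP4F3 (1.00), CYP39A1 (0.90), CYP4F12 (0.73), CYP26B1 (0.59), CYP27A1 (0.59), ALDH6A1 (0.58), AKR1C3 (0.55), UGT2B4 (0.50), ALDH2 (0.52), CYP3A5 (0.48), GSTT1 (0.45), GSTM4 (0.44), CYP26A1 (0.42), UGT2B17 (0.42), ALDH18A1 (0.36) and AKR1D1 (0.30). Values below 0 were found for UGT2A3 (-1.64), CYP1B1 (-0.98), UGT1A1 (-0.84), CYP20A1 (-0.68), ALDH8A1 (-0.66), SULT1C4 (-0.47) and ALDH1B1 (-0.30). CYP1B1 is the 1 enzyme gene of these that was called in both lines with opposite signs.

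Among the genes of the other lists that the naming rule took, values above 0 were found for AOX1 (2.05), RDH10 (1.77), ABCC5 (0.96), SLC22A9 (0.89), PPARGC1A (0.88), RBP4 (0.87), PPARA (0.79), RARRES2 (0.75), NR1H3 (0.71), HSD17B6 (0.67), HSD17B2 (0.64), CBR4 (0.62), AHR (0.41) and DPYD (0.36). Values below 0 were found for BAAT (-1.81), PLAAT4 (-1.20), ABCB1 (-1.18), RARRES1 (-1.03), FMO1 (-0.67), KEAP1 (-0.55), NFE2L2 (-0.48) and NNMT (-0.42). Of all genes of these lists, 8 were called in both lines with opposite signs, a count with no background share over all genes tested. They were AOX1, RDH10, ABCC5, PLAAT4 and, with less than 0.5 in each line and named after their values were seen, RXRA (0.35 in SK-Hep1 and -0.49 in Huh7), NQO1 (0.32 and -0.33), UGDH (0.37 and -0.46) and ABCC4 (0.29 and -0.25).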

How the results depend on the processing

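Of the 68 tested enzyme genes, 11 were called in SK-Hep1, but 4 when each line was fitted alone and 4 with array weights, and 5 to 9 with 1 array left out (5 without either SK-Hep1 control, 7 without either Huh7 knockdown array). The counts over all genes moved with them and were 1086 with each line alone, against 2092 otherwise, 1197 with array weights and 918 to 2443 with 1 array left out. In Huh7, 38 enzyme genes were called, with 28 to 42 when 1 array was left out and 33 to 45 in the other settings, while the count over all genes, 4835, ran from 2876 to 5604 with 1 array left out. Where no array was left out, the Huh7 count over all genes ran from 4456 without the filter to 6358 with array weights. For the difference between the lines, the 26 calls ran from 22 to 28 where no array was left out. The count over all genes, 3890, ran from 3495 to 4120 in these settings. The 14 Huh7 changes of at least 0.5 passed in each setting that tested them, and leaving out 1 array gave SMARCB1 differences of -1.35 to -0.98 in SK-Hep1 and -1.70 to -1.59 in Huh7. ABCC5 in SK-Hep1 reversed with the mean of all its probes, to -0.0039985, and AKR1D1 in Huh7, not called with its brightest probe, became 0.543019 (adjusted p = 0.000118), since its probes disagree. For ABCC5 the cause was not tested. Other calls that were lost or gained without 1 array stand beside their values above, and those not yet given, all gained, were in SK-Hep1 AKR1C2 without knockdown 12 (0.35, adjusted p = 0.0179), ALDH6A1 without knockdown 12 (-0.30, adjusted p = 0.0377), CYP26A1 without knockdown 11 (0.30, adjusted p = 0.0298) and UGT2B11 without control 1 (0.40, adjusted p = 0.0212), and CYP27A1 in SK-Hep1 without control 2 (0.49, adjusted p = 0.0175) and in Huh7 without either SK-Hep1 control (adjusted p = 0.0221). A fit without an array leaves its group with 1, assumed to vary like the other groups. Replicate arrays share no pairing: No paired analysis was possible because the groups compared share fewer than 2 replicate numbers. Dim probes limit what can be seen of the 74 genes at or below 7.0.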

Other observations

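ALDH1A1, the cytosolic retinaldehyde dehydrogenase, stood out by how little its brightest probe varied. It read 10.77 and 10.77 in SK-Hep1 knockdown cells, against 10.78 and 10.78 in SK-Hep1 controls, and 11.06 and 11.06 in Huh7 knockdown cells, against 11.06 and 11.06 in Huh7 controls. The range over the 4 arrays of a line was 0.00896 in SK-Hep1 and 0.00556 in Huh7 on the log2 scale, where the median range over the 68 enzyme genes was 0.282 and 0.361. It was the 1 enzyme gene with a range under 0.02 in both lines, as were 21 of 12426 genes. Its second probe differed by -0.06 in SK-Hep1 and -0.22 in Huh7, without passing. For the brightest probe, the SK-Hep1 mean minus the Huh7 mean was -0.285. This was the largest such gap of the 68 enzyme genes, where the SD was 0.050. Whether the small range and the gap come from how the values were processed was not tested.

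Some dim enzyme genes passed in SK-Hep1 once the filter was dropped. CYP2S1 read 7.07 and 7.15 in SK-Hep1 knockdown cells, against 6.71 and 6.69 in controls (0.41), but its second probe gave 0.03. SULT2B1, a cholesterol sulfotransferase, read 6.76 and 6.75 in SK-Hep1 knockdown cells, against 7.17 and 7.07 in controls (-0.37). AKR1C6P, a pseudogene of the AKR1C cluster, read 6.68 and 6.85 in SK-Hep1 knockdown cells, against 6.47 and 6.47 in controls (0.29). The second AKR1C6P probe gave 0.04.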
